A study of Mus musculus with 16 samples.

Results

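The constitutive proteasome genes were described across the immune cells of MC38 tumors and spleens. Members were all gene symbols that begin with Psma, Psmb, Psmc, Psmd, Psme or Psmf and a digit, or with Psmg and a digit, leaving out Psmb8, Psmb9 and Psmb10. This rule found 47 of the 24469 symbols in the count tables. The proteasome is the protease that degrades ubiquitin-tagged proteins in the cytosol and nucleus. Its barrel-shaped core particle is built from rings of alpha subunits (Psma genes) and rings of beta subunits (Psmb genes) that hold the active sites, and its regulatory particle is built from ATPases (Psmc genes) that unfold substrates and from non-ATPase subunits (Psmd genes) that bind and deubiquitinate them. Interferon-γ raises the immunoproteasome subunits Psmb8, Psmb9 and Psmb10, which can take the place of the catalytic beta subunits. It also raises the Psme1 and Psme2 activator, which is why these 2 activator genes are shown apart from the rest. The symbol alone can mislead, since Psmc3ip is taken by the rule but encodes a cofactor of meiotic recombination and not a proteasome subunit.

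The study asked how loss of Aire, the regulator that drives expression of tissue antigens in the thymus, shapes the immune response to a tumor and to checkpoint blockade. Mice on a C57BL/6 background carried MC38 tumors, a colon carcinoma line grown as an implant. The 4 conditions were Aire+/+ mice on isotype control, Aire+/+ mice on anti-PD1, Aire-/- mice on isotype control and Aire-/- mice on anti-PD1, where the deletion is present in the whole body and anti-PD1 blocks an inhibitory receptor of T cells. Tumors and spleens were collected on day 19, pooled over the mice of a condition, and sorted for CD45+ leukocytes or for CD8+ cells before droplet-based RNA sequencing with molecular identifiers (UMIs). That gave 16 libraries, with 1 library for each condition, tissue and sort. Where 4 values are listed, both Aire+/+ libraries come first and both Aire-/- libraries last, and within a genotype isotype comes before anti-PD1. Because animals were pooled, no value carries the spread between mice, and the p-values of the tissue comparisons measure the spread over 4 conditions, in which each tumor and spleen pair shares its condition.

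Libraries held 1856 to 2944 cells after filtering and 10927391 to 38930017 UMIs. Aire itself, the targeted gene, was counted with 0, 2, 1 and 0 UMIs in the CD45+ tumor libraries and with 6, 3, 1 and 0 UMIs in the CD8+ tumor libraries. The CD45+ spleen libraries held 2, 5, 4 and 0 Aire UMIs, and the 4 CD8+ spleen libraries held 0. These counts are too low to check the genotype labels, and a sequencing tag at the end of the transcript may lie outside the deleted part. The 120 pairs of libraries shared 2 to 18 cell barcodes, with a median of 7. The cell type gates described below exclude each other by definition, so no cell could fall into 2 of them.

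Cell types were gated on UMIs of marker genes. The CD8 T cell gate (Cd3 chains with Cd8a or Cd8b1 and no Cd4) held 2443, 2082, 1753 and 2121 cells in the CD8+ tumor libraries and 2773, 2824, 2268 and 2519 cells in the CD8+ spleen libraries. It held 124 to 694 cells in the CD45+ tumor libraries and 138 to 188 in the CD45+ spleen libraries. NK cells, gated on Ncr1 and Klrb1c, numbered 104 to 259 in tumor and 48 to 84 in spleen. Monocytes, gated on Lyz2, numbered 378 to 678 in tumor and 65 to 181 in spleen. Macrophages, gated on the C1q genes, were found in tumors with 1052, 706, 478 and 177 cells but in spleens with 7, 4, 4 and 3, and B cells in spleens with 1333 to 1697 and in tumors with 2 to 7, so that a tumor against spleen comparison could not be fitted for either type. Tumor cells were also deeper, with a median of 8804 to 10899 UMIs per CD8 T cell of the CD8+ sort in tumor and 5776 to 6374 in spleen.

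Members summed to a larger share of all UMIs in tumor than in the spleen of the same condition in CD8 T cells, NK cells and monocytes. The share of CD8 T cells of the CD8+ sort was 0.646, 0.638, 0.642 and 0.644% in tumor and 0.498, 0.451, 0.476 and 0.522% in spleen. The 4 tumor libraries lay within a narrow band above all 4 spleens, and the Aire+/+ anti-PD1 spleen was the lowest. CD8 T cells of the CD45+ sort, which come from separate libraries of the same conditions, had 0.645, 0.625, 0.664 and 0.632% in tumor and 0.486, 0.472, 0.493 and 0.498% in spleen, again without overlap. NK cells had 0.681, 0.654, 0.638 and 0.660% in tumor and 0.567, 0.597, 0.594 and 0.604% in spleen. Monocytes had 0.628, 0.589, 0.616 and 0.591% in tumor and 0.589, 0.559, 0.557 and 0.552% in spleen, where the ranges overlap, with the Aire+/+ isotype spleen just above the Aire+/+ anti-PD1 tumor. Tumor macrophages had 0.692, 0.653, 0.712 and 0.700%, and splenic B cells had 0.454, 0.442, 0.455 and 0.467%. In order of the median, macrophages came first, tumor NK cells and CD8 T cells followed and splenic B cells came last, with neighboring ranges overlapping in tumor.

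**Figure D1:**
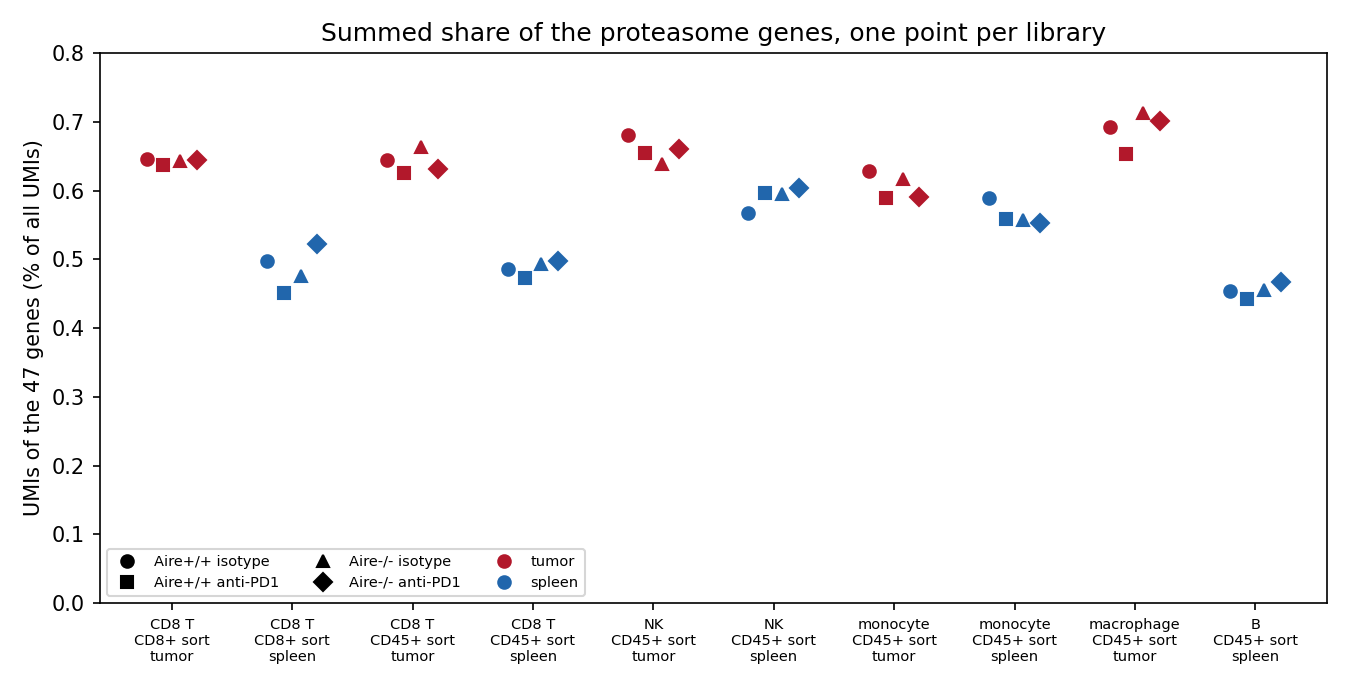
Summed UMIs of the 47 member genes as a percent of all UMIs, 1 point per library, in each gated cell type, sort and tissue. Tumor CD8 T cells sit between 0.625 and 0.664% and splenic CD8 T cells between 0.451 and 0.522%, while the ranges of tumor and spleen overlap in monocytes.

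Leaving out Psme1 and Psme2 kept tumor and spleen apart in CD8 T cells and brought them closer in NK cells. Without them the share was 0.541 to 0.555% in tumor and 0.364 to 0.419% in spleen for CD8 T cells of the CD8+ sort, and 0.534 to 0.584% against 0.490 to 0.517% for NK cells. In monocytes it was 0.479 to 0.526% in tumor and 0.470 to 0.517% in spleen, which overlap more widely than with all members. The denominator mattered as well, because ribosomal protein genes took a median of 24.5% of UMIs in tumor CD8 T cells of the CD8+ sort and 38.2% in spleen, but 25.7% in tumor NK cells and 17.3% in splenic ones. Of the UMIs that are neither ribosomal nor mitochondrial, the members took 0.861 to 0.902% in tumor CD8 T cells of the CD8+ sort and 0.804 to 0.882% in splenic ones, so on this denominator the ranges overlapped. In the Aire-/- anti-PD1 condition the direction turned, with 0.871% in tumor and 0.882% in spleen, while in the other conditions tumor stayed higher. On the same denominator the median was 0.909% in tumor NK cells and 0.747% in splenic ones, and 0.703 and 0.695% in monocytes. Monocytes of the Aire+/+ anti-PD1 condition were lower in tumor, with 0.688% against 0.694% in spleen, and higher in tumor in the other conditions. Macrophages had a median of 0.811% on this denominator, below tumor NK cells and tumor CD8 T cells, so the order of the cell types depends on the denominator.

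Single cells were spread widely around these sums. Per cell, the members' share had a median of 0.600 to 0.612% in tumor CD8 T cells of the CD8+ sort, with a 10th percentile of 0.426 to 0.434% and a 90th of 0.794 to 0.812%. The median of splenic CD8 T cells was 0.435 to 0.496%, the 10th percentile 0.304 to 0.350% and the 90th 0.604 to 0.690%. The 2 distributions overlapped, with the median splenic cell close to the lower end of the tumor cells. Median shares per cell were 0.576 to 0.639% in tumor NK cells and 0.565 to 0.604% in splenic ones, and 0.566 to 0.616% in tumor monocytes against 0.518 to 0.556% in splenic ones. These percentiles were not thinned to a common depth, so their widths are not compared between tissues.

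To ask which genes carried the shift, UMIs were summed per library and gate and tumor was compared with spleen across all genes, with the condition as a block (edgeR quasi-likelihood test, Benjamini-Hochberg adjustment over all genes tested). Levels are given as UMIs for each 1000000 UMIs of the gate in a library (CPM), raw or after TMM scaling, and fold changes are log2 ratios of TMM-scaled levels. Each fold change is followed by its standard error, its adjusted p and the number of conditions that show its direction. In CD8 T cells of the CD8+ sort, 32 of 45 members tested rose in tumor and 6 fell, beside 37.8% of all 11405 genes that rose and 39.6% that fell, and the median fold change was 0.40 over the members and −0.03 over all genes. CD8 T cells of the CD45+ sort had 27 of 45 that rose and 3 that fell, beside 28.0 and 27.0% of all 8369 genes. NK cells had 26 of 45 higher and 1 lower, beside 21.5 and 17.3% of 7652 genes, and monocytes had 30 of 44 higher and 1 lower, beside 28.1 and 24.7% of 8893 genes. Members that rose thus made up a larger share than genes at large in all 4 tests, and members that fell a smaller one. The members' median fold changes were 0.38, 0.51 and 0.44 in these last 3 tests, where the median over all genes was −0.03, −0.01 and −0.02.

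The number of calls depended on depth in the gates with fewer cells, and on scaling in NK cells and monocytes. With each cell thinned to 1500 UMIs, 28 of 45 members rose and 4 fell in CD8 T cells of the CD8+ sort, beside 3040 and 3156 of 9607 genes. In the CD45+ sort 5 of 39 rose and 2 fell, beside 756 and 724 of 3459 genes, in NK cells 2 of 33 rose and 0 fell, beside 465 and 392 of 2320, and in monocytes 8 of 40 rose and 0 fell, beside 1048 and 916 of 4704. Members called higher were thus no more frequent than genes at large in these last 3 gates when thinned. The members' median fold changes there were 0.18, 0.13 and 0.35, where those of all genes were −0.02, −0.01 and −0.03. In monocytes the calls were thus lost with a median near that of the main fit. DESeq2 called 34, 21, 15 and 25 members higher in the 4 tests, beside 4225 of 11405, 1841 of 8369, 1177 of 7652 and 2065 of 8893 genes. Scaling to total UMIs in place of TMM moved the median of all genes to −0.34 in NK cells and to −0.40 in monocytes, and the calls with it. On that scale, 8 members rose and 1 fell in NK cells, beside 999 and 2500 of all genes, and 10 rose and 8 fell in monocytes, beside 1525 and 4213. Levels of NK cells and monocytes below are therefore TMM-scaled unless raw levels are named.

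**Figure D2:**
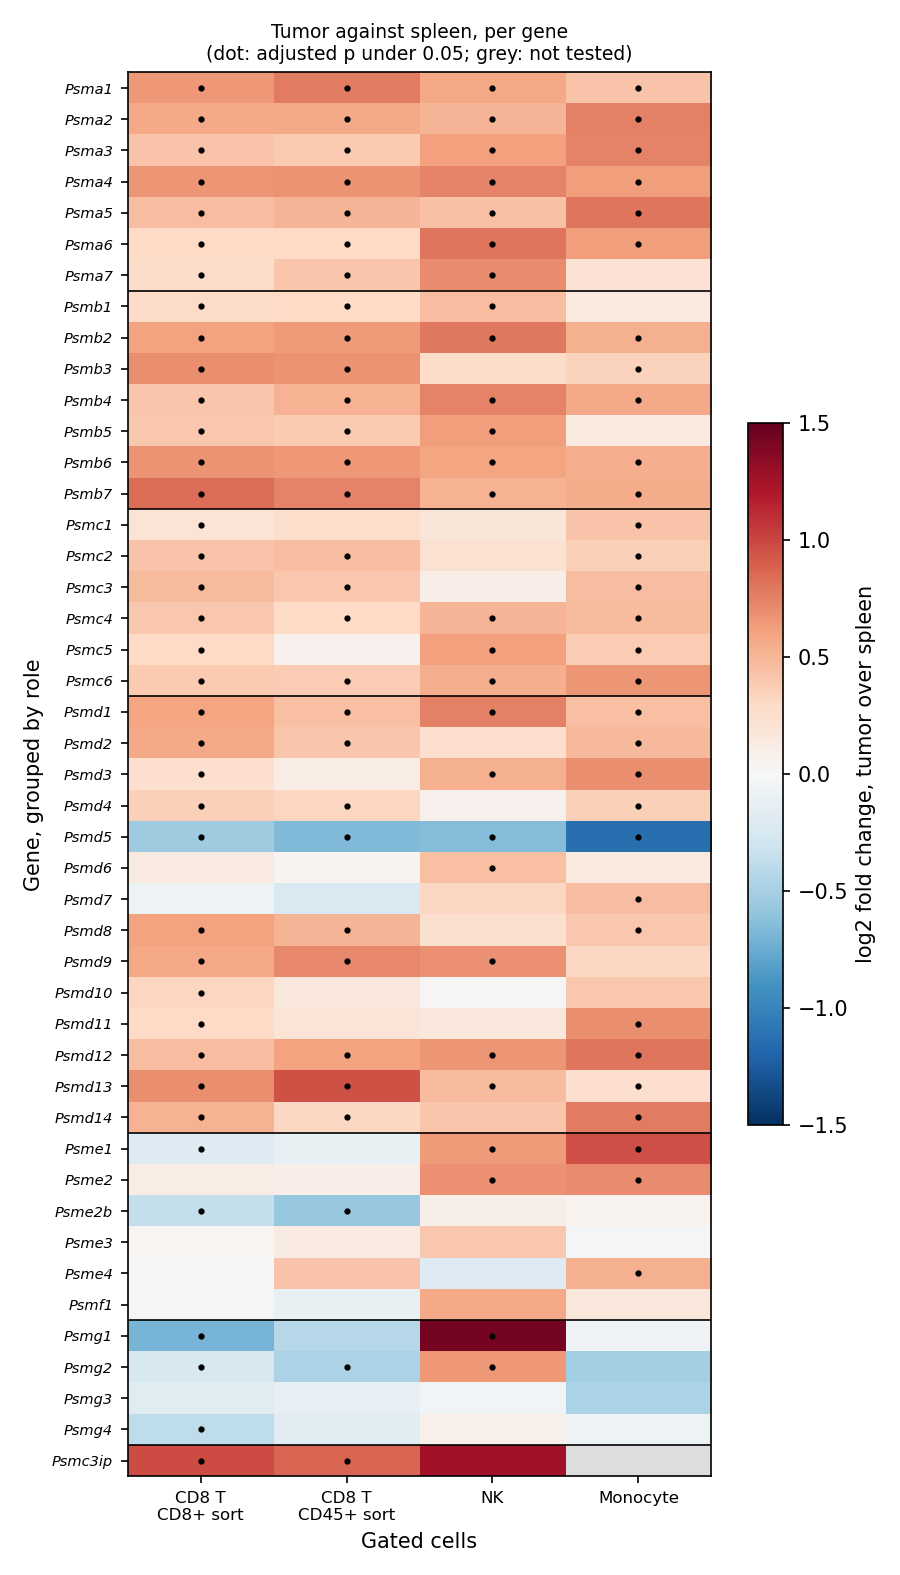
Log2 fold change of each member, tumor over spleen on the TMM scale, in rows ordered by role and in 1 column for each tissue test, where a dot marks an adjusted p under 0.05 and grey a gene that was not tested. Alpha and beta subunits are positive in all 4 columns, although some of them, Psmb5 included, turn negative in monocytes when scaled to total UMIs, while Psmd5 is negative in all 4 columns and Psme1 changes sign between CD8 T cells and monocytes.

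On the TMM scale, most subunits of the core particle rose in tumor. All 7 alpha subunits tested rose in CD8 T cells of both sorts and in NK cells, and 6 of 7 rose in monocytes, with medians of 0.46, 0.50, 0.62 and 0.63. All 7 beta subunits rose in CD8 T cells of both sorts, 6 of 7 in NK cells and 5 of 7 in monocytes, with medians of 0.61, 0.64, 0.60 and 0.53. As a share of all UMIs, the beta subunits of monocytes had a median of 0.132% in tumor and 0.135% in spleen and were lower in tumor in 3 of 4 conditions, so their rise as a group rests on TMM. Of the 3 catalytic subunits, Psmb5 carries the chymotrypsin-like site, Psmb6 the caspase-like site and Psmb7 the trypsin-like site. TMM-scaled levels of Psmb5 in CD8 T cells of the CD8+ sort were 196, 189, 200.2 and 198 CPM in tumor and 149, 136, 150.3 and 155 in spleen, a fold change of 0.41 ± 0.05 (SE, adjusted p = 0.00011, 4 of 4 conditions). Psmb6 had 211, 198, 199 and 186 in tumor and 132, 117, 125 and 126 in spleen, a fold change of 0.67 ± 0.05 (SE, adjusted p = 9.8e-06, 4 of 4 conditions). Psmb7 had 78.4, 80.2, 71.5 and 71.1 in tumor and 42.8, 39.5, 43.4 and 42.4 in spleen, a fold change of 0.84 ± 0.06 (SE, adjusted p = 9.9e-06, 4 of 4 conditions). For each of the 3 genes every tumor library lay above every spleen library.

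The CD45+ sort gave similar values for the catalytic subunits in CD8 T cells, with 0.39 ± 0.10 (SE, adjusted p = 0.0022, 4 of 4 conditions) for Psmb5, 0.65 ± 0.09 (SE, adjusted p = 7.9e-06, 4 of 4 conditions) for Psmb6 and 0.75 ± 0.13 (SE, adjusted p = 0.00011, 4 of 4 conditions) for Psmb7. In NK cells, Psmb5 had 295, 236, 251 and 243 CPM in tumor and 154, 130.1, 206 and 172 in spleen, a fold change of 0.63 ± 0.14 (SE, adjusted p = 0.0015, 4 of 4 conditions). Psmb6 and Psmb7 rose there by 0.60 ± 0.14 (SE, adjusted p = 0.0023, 4 of 4 conditions) and 0.52 ± 0.18 (SE, adjusted p = 0.030, 4 of 4 conditions). In monocytes, Psmb6 rose by 0.55 ± 0.10 (SE, adjusted p = 0.00012, 4 of 4 conditions) and Psmb7 by 0.56 ± 0.13 (SE, adjusted p = 0.0020, 4 of 4 conditions). Psmb5 was the exception, with 229, 203, 224 and 216 in tumor and 213, 178, 206 and 189.5 in spleen, ranges that overlap, and a fold change of 0.15 ± 0.09 (SE, adjusted p = 0.20, 4 of 4 conditions). Scaled to total UMIs this fold change was −0.24, and raw levels were 208, 178, 191 and 185 in tumor and 243, 205, 235 and 219 in spleen.

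Other core subunits stood out by the size of their change. Psmb3, a noncatalytic beta subunit, had 407, 397, 409 and 406 CPM in tumor CD8 T cells of the CD8+ sort and 258, 236, 245 and 262 in splenic ones, a fold change of 0.69 ± 0.05 (SE, adjusted p = 7.9e-06, 4 of 4 conditions). Psma1 was among the 5 largest changes of the CD45+ sort, with 120.3, 133, 148 and 127 in tumor CD8 T cells and 89.0, 66.1, 84.6 and 71.2 in splenic ones and a fold change of 0.78 ± 0.11 (SE, adjusted p = 7.0e-06, 4 of 4 conditions). For both genes the tumor and spleen libraries did not overlap. In NK cells, the alpha subunit Psma6 had 217, 169.7, 160.2 and 160.2 in tumor and 95.6, 101, 105 and 104 in spleen (0.81 ± 0.15 SE, adjusted p = 0.00037, 4 of 4 conditions). The beta subunits Psmb2 and Psmb4 rose there by 0.79 ± 0.13 (SE, adjusted p = 7.6e-05, 4 of 4 conditions) and 0.75 ± 0.17 (SE, adjusted p = 0.0014, 4 of 4 conditions). In monocytes, Psma2 had 339.7, 332, 350.1 and 328 in tumor and 231, 199, 179 and 188 in spleen (0.76 ± 0.10 SE, adjusted p = 3.8e-06, 4 of 4 conditions), and Psma5 rose by 0.80 ± 0.11 (SE, adjusted p = 4.9e-06, 4 of 4 conditions). In each of these genes all 4 tumor levels were above all 4 spleen levels.

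In the regulatory particle, the ATPases rose in CD8 T cells on the TMM scale and as a share of all UMIs. On the TMM scale, all 6 ATPases tested rose in CD8 T cells of the CD8+ sort, 4 of 6 in the CD45+ sort, 3 of 6 in NK cells and 6 of 6 in monocytes, with medians of 0.40, 0.34, 0.37 and 0.44. Their share of all UMIs had a median of 0.0632% in tumor NK cells and 0.0657% in splenic ones, and in monocytes it was lower in tumor in both Aire-/- conditions. Of the 14 non-ATPase genes, a group in which Psmd5, Psmd9 and Psmd10 encode chaperones that assemble the base of the particle, 11, 8, 6 and 10 rose in the 4 tests, and 1 fell in each. Of all genes, 37.8, 28.0, 21.5 and 28.1% rose in these tests and 39.6, 27.0, 17.3 and 24.7% fell. As a share of all UMIs, the non-ATPase genes had a median of 0.128% in tumor NK cells and 0.131% in splenic ones, so their rise as a group there rests on TMM. Psmd13, a lid subunit, had 151, 146, 150.4 and 147 CPM in tumor CD8 T cells of the CD8+ sort and 94.3, 83.7, 90.8 and 96.3 in splenic ones, a fold change of 0.70 ± 0.05 (SE, adjusted p = 8.1e-06, 4 of 4 conditions). It rose by 0.96 ± 0.10 (SE, adjusted p = 2.2e-07, 4 of 4 conditions) in the CD45+ sort, in NK cells by 0.48 ± 0.15 (SE, adjusted p = 0.018, 4 of 4 conditions) and in monocytes by 0.26 ± 0.11 (SE, adjusted p = 0.0499, 4 of 4 conditions). In monocytes the rise depended on the scaling, since raw levels of Psmd13 were 123, 112, 103 and 107 in tumor and 135, 128, 101 and 127 in spleen, lower in tumor in 3 of 4 conditions. Psmd9 rose in CD8 T cells of the CD45+ sort, from 20.9 to 36.9 in spleen to 49.1 to 52.0 in tumor (0.72 ± 0.15 SE, adjusted p = 0.00051, 4 of 4 conditions).

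Psmd1, a scaffold of the base, rose in NK cells, with 105, 107, 94.3 and 106 CPM in tumor and 66.4, 50.4, 63.9 and 61.0 in spleen (0.75 ± 0.17 SE, adjusted p = 0.0021, 4 of 4 conditions). In monocytes the largest rises of the regulatory particle were those of Psmd12, a lid subunit, and Psmd14, the deubiquitinase of the lid. Psmd12 had 75.6, 72.5, 72.4 and 66.9 in tumor and 42.8, 42.2, 42.7 and 36.1 in spleen (0.81 ± 0.12 SE, adjusted p = 2.9e-05, 4 of 4 conditions), and Psmd14 had 96.1, 84.9, 106 and 80.6 in tumor and 65.0, 50.1, 42.7 and 56.0 in spleen (0.78 ± 0.14 SE, adjusted p = 0.00010, 4 of 4 conditions). The 2 tissues did not overlap for any of these 3 genes.

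Psmd5 went the other way in every tissue test, and was the 1 non-ATPase gene that fell. CD8 T cells of the CD8+ sort had 26.8, 24.6, 28.3 and 27.2 CPM in tumor and 39.0, 36.2, 41.4 and 38.2 in spleen, a fold change of −0.53 ± 0.05 (SE, adjusted p = 3.8e-05, 4 of 4 conditions). Those of the CD45+ sort had 21.3, 23.7, 26.2 and 23.5 in tumor and 38.1, 31.4, 37.6 and 41.5 in spleen (−0.66 ± 0.15 SE, adjusted p = 0.0012, 4 of 4 conditions). Monocytes showed the largest difference, with 12.6, 10.7, 10.6 and 13.4 in tumor and 26.0, 25.5, 24.8 and 27.1 in spleen (−1.13 ± 0.18 SE, adjusted p = 3.6e-05, 4 of 4 conditions). All 4 tumor levels lay below all 4 spleen levels in each of these gates. In NK cells, with 31.4, 28.7, 24.9 and 34.1 in tumor and 34.5, 50.4, 63.9 and 39.5 in spleen, without overlap, the fold change was −0.65 ± 0.25 (SE, adjusted p = 0.0489, 4 of 4 conditions), a call that was lost with DESeq2, without the low-count filter and when any 1 condition was left out.

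Psme1 and Psme2, the subunits of the interferon-γ-inducible activator that caps the core particle, did not follow the core in CD8 T cells. Raw levels of Psme1 in the CD8+ sort were 568, 595, 604 and 609 CPM in tumor and 666, 592, 607 and 684 in spleen, which overlap. On the TMM scale they were 552, 570.4, 596 and 585 in tumor and 692, 626, 627 and 684 in spleen, a fold change of −0.19 ± 0.06 (SE, adjusted p = 0.019, 4 of 4 conditions), with every tumor below every spleen. Psme2 had 333, 354, 353 and 366 in tumor and 342, 293, 319 and 346 in spleen on that scale, a fold change of 0.12 ± 0.06 (SE, adjusted p = 0.12, 3 of 4 conditions). In the CD45+ sort, Psme1 had a fold change of −0.11 ± 0.07 (SE, adjusted p = 0.20, 3 of 4 conditions) and Psme2 one of 0.10 ± 0.08 (SE, adjusted p = 0.29, 4 of 4 conditions). Neither gene passed the test there.

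In NK cells and monocytes both activator genes rose. NK cells had TMM-scaled Psme1 levels of 733, 812, 801 and 788 in tumor and 496, 478, 532 and 496 in spleen, a fold change of 0.64 ± 0.10 (SE, adjusted p = 2.6e-05, 4 of 4 conditions). Psme2 had 361, 383, 374 and 422 in tumor NK cells and 199, 239, 238 and 284 in splenic ones (0.69 ± 0.12 SE, adjusted p = 9.9e-05, 4 of 4 conditions). Monocytes had Psme1 levels of 748, 763, 809.9 and 772 in tumor and 373, 367, 408 and 439 in spleen, a fold change of 0.97 ± 0.09 (SE, adjusted p = 3.7e-08, 4 of 4 conditions). For Psme1 the tumor libraries were above the spleen libraries without overlap in both cell types, also as raw levels, which were 661 to 689.9 in tumor monocytes and 422 to 506 in splenic ones. Psme2 had 379, 403, 487 and 534 in tumor monocytes and 261, 258, 297 and 271 in splenic ones, a fold change of 0.71 ± 0.10 (SE, adjusted p = 6.6e-06, 4 of 4 conditions), with the 2 Aire-/- tumor libraries above the 2 Aire+/+ ones.

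**Figure D3:**
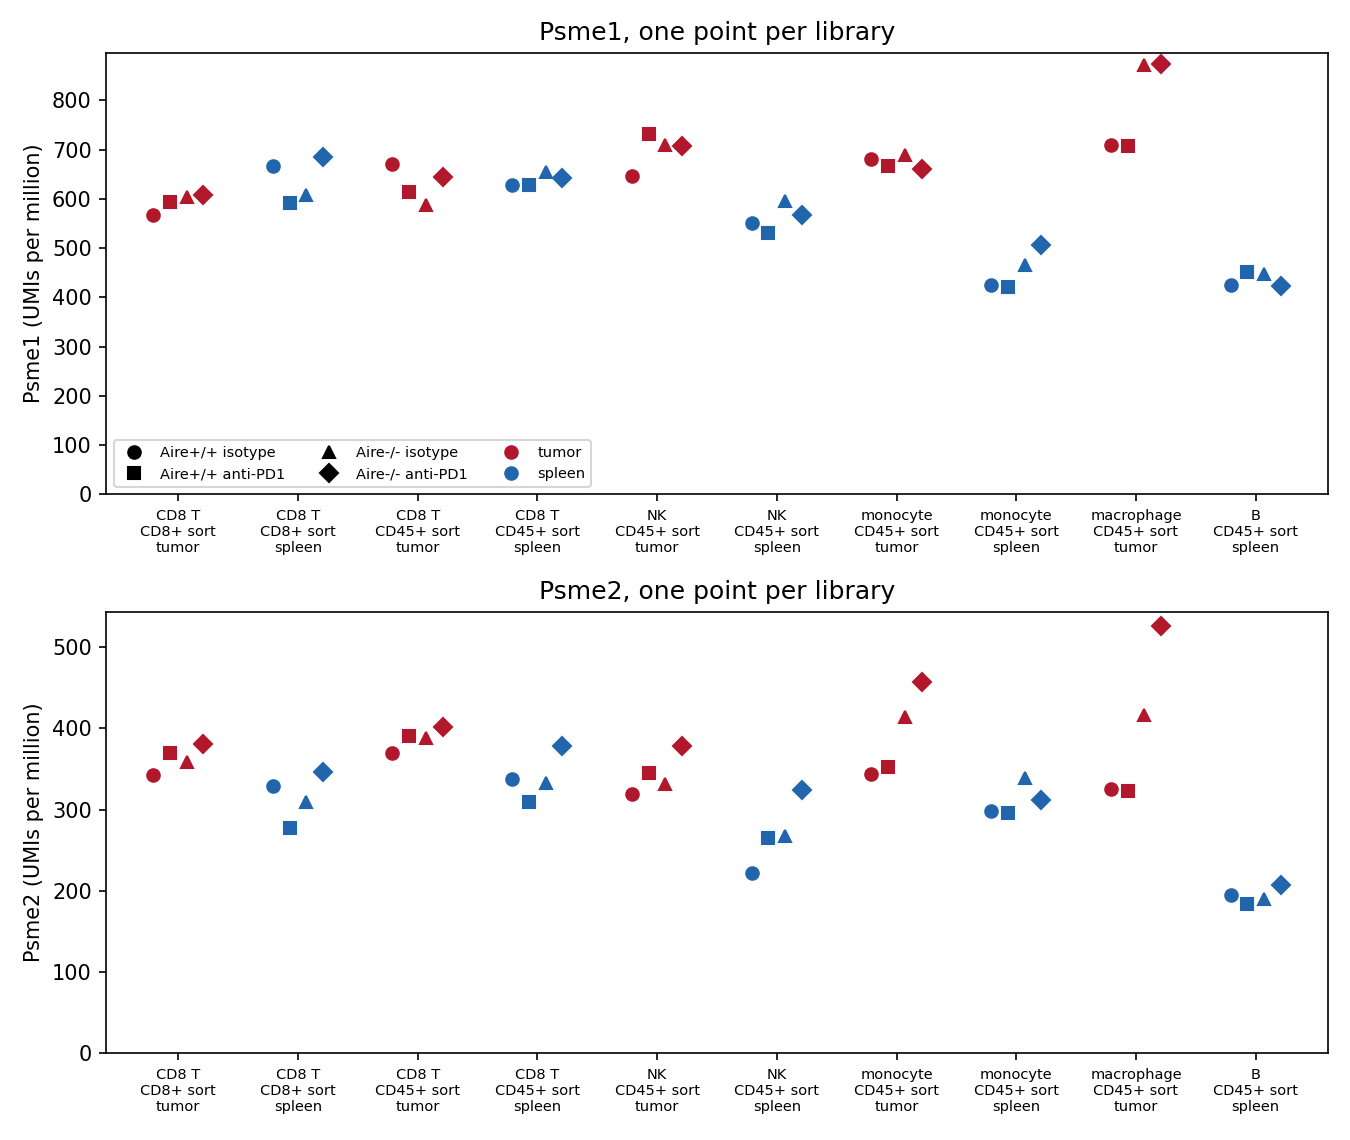
Raw CPM of Psme1 and Psme2, 1 point per library, in each gated cell type, sort and tissue. Psme1 separates tumor (661 to 690) from spleen (422 to 506) in monocytes and overlaps between tissues in CD8 T cells of the CD8+ sort, and Psme2 reaches its highest level, 527, in macrophages of the Aire-/- anti-PD1 tumors.

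Psme2b is a near-identical copy of Psme2, so that UMIs of the 2 genes could be split between them and its values are uncertain. It fell in CD8 T cells of the CD8+ sort, from 181, 158, 166 and 184 CPM in spleen to 109, 119, 162 and 152 in tumor (−0.36 ± 0.10 SE, adjusted p = 0.011, 4 of 4 conditions). The Aire-/- isotype tumor lay within the range of the spleens and the other 3 tumors below it. In the CD45+ sort it had a fold change of −0.56 ± 0.09 (SE, adjusted p = 5.5e-05, 4 of 4 conditions), without overlap. In NK cells and monocytes the values were 0.09 ± 0.16 (SE, adjusted p = 0.69, 3 of 4 conditions) and 0.05 ± 0.11 (SE, adjusted p = 0.71, 3 of 4 conditions), neither past the threshold, and scaling to total UMIs turned them to −0.25 and −0.34.

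The remaining activators and the inhibitor passed in 1 test of the 4 tissue tests at most. Psme3, which forms a nuclear cap of the core particle, had fold changes of 0.03, 0.13, 0.40 and −0.03 in the 4 tissue tests and passed in none, with adjusted p of 0.67, 0.43, 0.073 and 0.91 and higher tumor levels in 2, 2, 4 and 1 of 4 conditions. Psme4, a large single-chain cap, rose in monocytes alone, where it had 31.3, 35.6, 44.3 and 48.0 in tumor and 26.6, 32.5, 20.9 and 23.5 in spleen (0.53 ± 0.18 SE, adjusted p = 0.019, 4 of 4 conditions). On the TMM scale all tumors but the Aire+/+ isotype one were above all 4 spleens. As raw levels Psme4 was lower in tumor in both Aire+/+ conditions, so its rise there rests on TMM. The splenic libraries held 120 Psme4 UMIs together. The difference of the Psme4 effect between monocytes and CD8 T cells was 0.04 ± 0.32 (SE, adjusted p = 0.96, 2 of 4 conditions), so that the rise cannot be called particular to monocytes. Psmf1, an inhibitor of the core particle, had fold changes of −0.01, −0.11, 0.57 and 0.17, with adjusted p of 0.81, 0.51, 0.071 and 0.39 and higher tumor levels in 3, 1, 3 and 4 of 4 conditions.

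The 4 chaperones that assemble the core particle (Psmg1 to Psmg4) did not rise with it in CD8 T cells. In the CD8+ sort 3 of 4 fell, beside 39.6% of all 11405 genes. Psmg1 had 18.8, 15.3, 19.5 and 15.0 CPM in tumor and 30.7, 27.5, 24.3 and 28.1 in spleen, a fold change of −0.70 ± 0.10 (SE, adjusted p = 0.00033, 4 of 4 conditions). Psmg4 had 48.7, 42.9, 44.0 and 45.2 in tumor and 60.1, 59.7, 58.6 and 56.5 in spleen (−0.38 ± 0.05 SE, adjusted p = 0.00032, 4 of 4 conditions), and Psmg2 had 38.5, 34.9, 38.0 and 37.5 in tumor and 45.6, 45.1, 40.5 and 44.1 in spleen (−0.24 ± 0.06 SE, adjusted p = 0.0074, 4 of 4 conditions), each without overlap. Psmg3 was lower in every tumor than in every spleen, with −0.18 ± 0.07 (SE, adjusted p = 0.0501, 4 of 4 conditions), and did not pass. In the CD45+ sort, Psmg2 fell, with 34.5, 33.9, 39.1 and 31.0 in tumor and 57.8, 43.4, 50.2 and 43.2 in spleen (−0.47 ± 0.13 SE, adjusted p = 0.0059, 4 of 4 conditions), while the other 3 had fold changes of −0.43, −0.12 and −0.16 that did not pass.

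In NK cells Psmg1 was higher in tumor. It had 43.2, 38.5, 32.6 and 29.0 CPM in tumor and 2.65, 16.8, 11.6 and 25.1 in spleen, a fold change of 1.43 ± 0.39 (SE, adjusted p = 0.0069, 4 of 4 conditions). The tumor levels lay above the spleen levels, although the splenic libraries were spread from 2.65 to 25.1, and they rest on 48 to 84 cells each. The splenic libraries held 16 Psmg1 UMIs together, so the gene passed the low-count filter through the tumor libraries alone and the size of its change is uncertain. Psmg2 rose in NK cells as well (0.66 ± 0.26 SE, adjusted p = 0.0496, 4 of 4 conditions), with 46.0, 49.0, 36.2 and 50.3 in tumor and 21.2, 21.0, 32.0 and 39.5 in spleen, which overlap. The splenic libraries held 35 Psmg2 UMIs together. As raw levels it was not higher in tumor in either Aire-/- condition, so its direction there rests on TMM. None of the 4 chaperones passed in monocytes, where the fold changes were −0.06, −0.51, −0.47 and −0.07.

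Of the members that are no part of the common proteasome, Psma8, a testis subunit, had 110 UMIs over all gates, 70 of them in macrophages, and Psmb11, the catalytic subunit of thymic epithelium, had 3, so neither was tested. Psmc3ip had 2215 UMIs. It rose in CD8 T cells of the CD8+ sort, with 12.3, 12.1, 11.5 and 11.0 CPM in tumor and 6.51, 5.71, 4.67 and 7.04 in spleen (0.97 ± 0.12 SE, adjusted p = 0.00015, 4 of 4 conditions). Without cells that held at least 2 UMIs over Mki67, Top2a, Cdk1, Ccnb2, Birc5 and Rrm2, the fold change of Psmc3ip was −0.03. Its fold change was 0.88 ± 0.31 (SE, adjusted p = 0.023, 4 of 4 conditions) in the CD45+ sort, and in NK cells it was 1.27 ± 0.70 (SE, adjusted p = 0.16, 2 of 4 conditions), with 0 UMIs in the 2 Aire+/+ spleens. The splenic libraries held 23 Psmc3ip UMIs together in the CD45+ sort and 6 in NK cells. There the gene passed the low-count filter through the tumor libraries alone.

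Several things other than the proteasome moved between the tissues, and their part in the members' shift was not tested beyond the alternatives named here. Mitochondrial genes took a median of 2.08% of UMIs in tumor CD8 T cells of the CD8+ sort and 3.94% in splenic ones. The medians in tumor and spleen were 2.13 and 2.98% in NK cells and 2.22 and 2.66% in monocytes. Cycling cells made up 31.5, 24.0, 23.1 and 20.6% of tumor CD8 T cells of the CD8+ sort and 0.938, 0.496, 2.07 and 1.51% of splenic ones. Of a list of 13 cell cycle genes, 13 rose in CD8 T cells of both sorts and in NK cells, and 3 of 8 tested rose in monocytes, and the list summed to 1748 to 1971 CPM in tumor CD8 T cells and 474 to 740 in splenic ones. Without cycling cells, 32 of 45 members rose and 7 fell in CD8 T cells of the CD8+ sort, beside 4058 and 4316 of 11054 genes, and 20 of 44 rose and 5 fell in the CD45+ sort, beside 2084 and 1934 of 7812. In NK cells 20 of 44 then rose and 1 fell, beside 1368 and 1142 of 6316 genes, and in monocytes 31 of 44 rose and 2 fell, beside 2457 and 2195 of 8839. Of 10 genes induced by tissue dissociation and stress, 7, 7, 8 (of 9 tested) and 9 rose in the 4 tests, and the list summed to 5061 to 5714 in tumor CD8 T cells and 1778 to 2795 in splenic ones, and to 11435 to 14280 in tumor monocytes and 2879 to 3900 in splenic ones. Of 10 interferon-γ target genes, 4 and 7 rose in CD8 T cells of the CD8+ and CD45+ sorts, 2 of 9 tested in NK cells, where 1 fell, and 10 in monocytes, with a median of 2.28. Of all genes, 37.8, 28.0, 21.5 and 28.1% rose in these tests, so that the counts in the CD8+ sort and in NK cells are close to the background. That list summed to 2319 to 4163 CPM in tumor monocytes and 620 to 1197 in splenic ones, and to 797 to 1087 in tumor NK cells and 847 to 1007 in splenic ones.

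Markers of other cell types moved with the tissue as well, and their part was not tested either. Within CD8 T cells of the CD8+ sort, the 3 C1q genes of macrophages were all detected in tumor and summed to 7.45 to 23.5 CPM, led by C1qb, against 0.425 to 0.582 in spleen, and Lyz2 had 2.01 to 4.80 in tumor and 0.0666 to 0.691 in spleen. The 3 B cell markers went the other way, with 2.46 to 4.12 in tumor and 22.1 to 25.9 in spleen, led by Cd79b, with Ms4a1 at 0 in every library. Red cell markers (Hbb-bs and Hba-a1) had at most 0.0319 in tumor and 0.771 to 202 in spleen, led by Hbb-bs. In the NK cell gate, Ncr1 and Klrb1c summed to 737 to 803 in tumor and 2857 to 3241 in spleen. Cd8a and Cd8b1 were at 0 in all 8 libraries by definition, since the NK gate admits no UMI of either gene. In the monocyte gate, Lyz2 had 9004 to 14298 in tumor and 19611 to 21978 in spleen, and the C1q genes had 56.4 to 81.6 in tumor and at most 17.9 in spleen, with all 3 at 0 in 2 splenic libraries. Marker levels within a gate thus differed between the 2 tissues.

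Between cell types of the tumor, macrophages had higher levels of many members than CD8 T cells. Against CD8 T cells of the same CD45+ libraries, 26 of 45 members were higher in macrophages and 4 lower, beside 32.3 and 30.4% of all 10222 genes, with a median fold change of 0.30. In thinned cells 10 of 44 were higher and 3 lower, beside 1476 and 1384 of 5874 genes, so the excess of calls was gone. The median fold change stayed about as large there, at 0.32 over the members and −0.005 over all genes. Scaled to total UMIs, which moved the median of all genes to −0.19, 13 were higher and 8 lower, beside 2698 and 3977 of all genes. Raw levels of Psmd7, a lid subunit, were 105, 99.6, 113 and 100.3 CPM in macrophages and 59.2, 64.7, 72.4 and 65.4 in CD8 T cells, a TMM fold change of 0.87 ± 0.09 (SE, adjusted p = 1.4e-05, 4 of 4 conditions). Psme4 had 21.5, 23.5, 28.8 and 32.6 in macrophages and 13.3, 17.3, 14.6 and 17.5 in CD8 T cells (0.97 ± 0.15 SE, adjusted p = 0.00030, 4 of 4 conditions). Every macrophage level was above every CD8 T cell level for both genes. Psma6 followed with 0.67 ± 0.10 (SE, adjusted p = 0.00021, 4 of 4 conditions), Psmd8 with 0.65 ± 0.09 (SE, adjusted p = 0.00015, 4 of 4 conditions) and Psma1 with 0.62 ± 0.09 (SE, adjusted p = 0.00022, 4 of 4 conditions). Psmg2 was lower in macrophages, with 25.4, 18.0, 17.8 and 14.6 against 34.8, 35.0, 40.4 and 32.7 (−0.74 ± 0.14 SE, adjusted p = 0.0012, 4 of 4 conditions), as were Psmd5 at −0.38 ± 0.13 (SE, adjusted p = 0.032, 4 of 4 conditions) and Psmb1 at −0.26 ± 0.09 (SE, adjusted p = 0.026, 4 of 4 conditions). Psmc3ip was lower too, at −1.20 ± 0.24 (SE, adjusted p = 0.0017, 4 of 4 conditions), a call that was lost without cycling cells (−0.66, adjusted p = 0.12). Psme1 was higher in macrophages (0.52 ± 0.11 SE, adjusted p = 0.0027, 4 of 4 conditions) and Psme2 had 0.20 ± 0.13 (SE, adjusted p = 0.21, 2 of 4 conditions).

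Tumor NK cells and tumor CD8 T cells had similar levels of the members. Of 45 members, 5 were higher in NK cells and 1 lower, beside 13.0 and 14.7% of all 8944 genes, with a median fold change of 0.09. Raw levels of Psmg1 were 38.1, 34.7, 28.9 and 26.0 CPM in NK cells and 27.4, 15.3, 21.6 and 15.0 in CD8 T cells (0.73 ± 0.15 SE, adjusted p = 0.0043, 4 of 4 conditions). The first CD8 T cell library overlapped the range of the NK cells, and the other 3 lay below it. Higher as well were Psme3, at 0.39 ± 0.11 (SE, adjusted p = 0.017, 4 of 4 conditions), Psmd1, at 0.31 ± 0.09 (SE, adjusted p = 0.028, 4 of 4 conditions), Psmd6, at 0.30 ± 0.09 (SE, adjusted p = 0.030, 4 of 4 conditions), and Psmb6, at 0.23 ± 0.07 (SE, adjusted p = 0.037, 4 of 4 conditions). Psmd8 was lower, at −0.26 ± 0.07 (SE, adjusted p = 0.025, 4 of 4 conditions). None of these last 5 was called by DESeq2 or in thinned cells.

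Splenic B cells had lower levels of Psme1 and Psme2 than splenic CD8 T cells of the same libraries. Of 45 members, 1 was higher in B cells and 10 lower, beside 22.8 and 21.3% of all 9930 genes, with a median of −0.11. Members that were lower were thus about as frequent as genes at large. Raw levels of Psme1 were 426, 452, 447 and 423 CPM in B cells and 628, 628, 655 and 643 in CD8 T cells (−0.70 ± 0.04 SE, adjusted p = 8.3e-14, 4 of 4 conditions). Psme2 had 195, 183, 190.3 and 208 in B cells and 337, 309.7, 333 and 378 in CD8 T cells (−0.96 ± 0.05 SE, adjusted p = 6.5e-15, 4 of 4 conditions). In both genes the B cells lay far below the T cells, without overlap. Lower too were Psme2b, at −1.002 ± 0.07 (SE, adjusted p = 5.2e-13, 4 of 4 conditions), Psmf1, at −0.39 ± 0.13 (SE, adjusted p = 0.015, 4 of 4 conditions), and Psmb3, at −0.31 ± 0.06 (SE, adjusted p = 5.0e-05, 4 of 4 conditions). Psma1 was the member that was higher, at 0.38 ± 0.09 (SE, adjusted p = 0.0011, 4 of 4 conditions). Scaled to total UMIs, which moved the median of all genes to 0.19, 5 members were higher and 4 lower, beside 3110 and 1573 of all genes. DESeq2 called 6 members lower, beside 1600 of 9930 genes, and the thinned cells gave 5 of 44, beside 1002 of 8296. The fits without 1 condition gave 4 to 7 of 44, beside 1473 to 1611 of 7426 to 7637 genes. In none of these fits were members called lower more frequent than genes at large.

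Whether the tissue effect itself differed between cell types was tested as a difference of the effects against CD8 T cells of the CD45+ sort. For NK cells, 7 of 45 members had a larger and 1 a smaller effect, beside 10.3 and 11.1% of all 9141 genes. For monocytes, 5 had a larger and 2 a smaller effect, beside 11.8 and 15.6% of all 10021 genes. Among monocytes, members with a larger effect were about as frequent as genes at large. For NK cells the small excess was not seen in thinned cells, with 2 of 42 members beside 333 of 4146 genes. Psme1 gave the clearest differences, with 0.79 ± 0.10 (SE, adjusted p = 1.7e-05, 4 of 4 conditions) for NK cells and 0.98 ± 0.11 (SE, adjusted p = 1.3e-05, 4 of 4 conditions) for monocytes. Psme2 gave 0.62 ± 0.12 (SE, adjusted p = 0.00085, 4 of 4 conditions) for NK cells and 0.52 ± 0.13 (SE, adjusted p = 0.0085, 4 of 4 conditions) for monocytes, calls that were both lost when scaled to total UMIs. On that scale the median of all genes moved to −0.50 and −0.52, with 2 members larger and 14 smaller for NK cells (503 and 2670 of all genes) and 1 larger and 19 smaller for monocytes (716 and 3348). Psmg1 differed by 1.84 ± 0.42 (SE, adjusted p = 0.0038, 4 of 4 conditions) for NK cells, a call that was lost in thinned cells, and Psmd13 by −0.80 ± 0.16 (SE, adjusted p = 0.0019, 4 of 4 conditions) for monocytes.

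Between conditions there is 1 library per group, so levels are given with exact 95% intervals that cover counting error only, and no test. The summed share of the members differed little. Its log2 ratio lay between −0.14 and 0.21 over all gates, genotypes and treatments. The largest was that of Aire-/- over Aire+/+ under anti-PD1 in splenic CD8 T cells of the CD8+ sort, at 0.21 (0.20 to 0.22), or 0.13 of the UMIs that are neither ribosomal nor mitochondrial, where the CD45+ sort of the same spleens gave 0.08 (0.02 to 0.13). Anti-PD1 over isotype was −0.14 in Aire+/+ and 0.13 in Aire-/- in those CD8+ libraries, contrasts that share libraries with the first. In tumor CD8 T cells of the CD8+ sort the 4 ratios lay between −0.02 and 0.02.

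Single members were counted as changed at a log2 ratio of at least 0.5 in size, in the 5 gates with at least 2000000 UMIs in every library. In tumor CD8 T cells, 1 member passed in Aire-/- over Aire+/+ under isotype, Psme2b at 0.54 (0.48 to 0.61), and 0 in the other 3 contrasts, beside 7.61% of all symbols in the first and 7.13, 6.01 and 5.21% in Aire-/- over Aire+/+ under anti-PD1, anti-PD1 over isotype in Aire+/+ and the same in Aire-/-. In splenic CD8 T cells, Psme4 passed in Aire-/- over Aire+/+ under anti-PD1, at −0.53 (−0.83 to −0.23), and Psmc3ip in anti-PD1 over isotype in Aire-/-, at 0.64 (0.19 to 1.10) from 109 and 68 UMIs. The background there was 9.83 and 8.46% for the genotype under anti-PD1 and isotype and 4.17 and 5.25% for the treatment in Aire+/+ and Aire-/-. In splenic B cells 1 member passed, Psme4 at −0.50 (−0.91 to −0.10) in Aire-/- over Aire+/+ under isotype, beside 6.36% of symbols, with 7.73, 5.16 and 4.62% in the other 3 contrasts.

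In tumor macrophages, Psme1, Psme2 and Psme2b had higher levels in the Aire-/- libraries, of which there is 1 for each treatment, so that a genotype effect cannot be told from a difference between pools. Raw levels of Psme2 were 325, 323, 417 and 527 CPM, so that both Aire-/- libraries lay above both Aire+/+ libraries. Relative to Aire+/+, the log2 ratio was 0.36 (0.29 to 0.42) with isotype and 0.71 (0.61 to 0.80) with anti-PD1, and anti-PD1 over isotype was 0.34 (0.24 to 0.44) in Aire-/- mice. Psme1 had 709.5, 708, 871 and 874, a ratio of 0.30 (0.25 to 0.34) with isotype and of 0.30 (0.23 to 0.38) with anti-PD1. Psme2b had 107, 113, 140.1 and 211, with a ratio of 0.89 (0.73 to 1.05) between genotypes with anti-PD1. Monocytes of the same tumors had a Psme2 ratio of 0.27 (0.19 to 0.35) with isotype and 0.37 (0.28 to 0.47) with anti-PD1, while Psme1 had 0.020 (−0.039 to 0.079) and −0.012 (−0.084 to 0.061). The interferon-γ target list moved along, summing to 1553, 1635, 2711 and 2959 CPM in the macrophages, and its part was not tested. These macrophage libraries hold 1052, 706, 478 and 177 cells.

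Among all members in macrophages, 2 were up (Psme2 and Psme2b) and 2 down (Psmf1 and Psmc3ip, the latter with 6 and 48 UMIs) in Aire-/- over Aire+/+ under anti-PD1, beside 25.9% of symbols in either direction. Psmg2 alone passed under isotype, at −0.51 (−0.81 to −0.23), beside 12.9%. Psme2b (0.59) and Psmf1 (−0.57) passed in anti-PD1 over isotype in Aire-/-, beside 17.3%, and 0 members in Aire+/+, beside 6.54%. In tumor monocytes Psmf1 alone passed, at −0.55 (−0.98 to −0.13) in Aire-/- over Aire+/+ under anti-PD1, beside 17.4%, and at −0.55 (−0.97 to −0.13) in anti-PD1 over isotype in Aire-/-, beside 10.7%, contrasts that share the Aire-/- anti-PD1 library. There were 0 members in the other 2 contrasts, beside 15.7 and 8.97%. The background takes in symbols with as few as 50 UMIs, whose ratios scatter more, so the percentages are no measure of how the members compare.

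The other genes of the pathway were tested in the same way. Of 28 listed genes for assembly, substrate delivery and transcriptional control of the proteasome, all tested, 14 rose and 7 fell in CD8 T cells of the CD8+ sort, 6 and 5 in the CD45+ sort, 9 and 2 in NK cells and 9 and 2 in monocytes, beside 37.8 and 39.6, 28.0 and 27.0, 21.5 and 17.3, and 28.1 and 24.7% of all genes. Both counts in the CD45+ sort are below the background. Pomp, the maturation factor of the core particle, had fold changes of 0.52, 0.63, 0.85 and 0.24, and Shfm1, the small lid subunit, of 0.62, 0.66, 0.41 and 0.38. The stress-responsive transcription factor gene Nfe2l2 had −0.59 and −0.52 in CD8 T cells, −0.17 in NK cells, where it did not pass, and 1.22 in monocytes. The immunoproteasome genes, which the rule leaves out, summed to 0.142 to 0.156% of UMIs in tumor CD8 T cells of the CD8+ sort and 0.0877 to 0.107% in splenic ones. Of the 3 genes, 2, 2, 1 and 3 rose in the 4 tissue tests, with Psmb8 at 0.63, 0.72, 0.55 and 1.04 in all of them and Psmb10 in monocytes alone.

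Over the 16 CD8 T cell values, 1 from each library, the 5 symbols outside the rule whose levels followed the members' summed share most closely, among 1727 symbols with at least 50 UMIs in each, were Atp5j2, Usmg5, Cox6c, Cox5a and Atp5j, with Pearson r of 0.993, 0.993, 0.991, 0.990 and 0.989. All 5 encode subunits of mitochondrial ATP synthase or cytochrome c oxidase. The 16 values share 4 conditions and fall into a tumor and a spleen group, which by itself raises r for any gene that differs between tissues.

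Promoter sequence from RefSeq (GRCm38.p6) was on hand for 39 of the 47 members, as 250 bases before the gene start, and is shown because the core subunits moved together. The letters TGACNNNGC, the core of the antioxidant response element that Nfe2l1 and Nfe2l2 bind, were found on either strand in 5 of 39 members (12.8%) and in 11.5% of 27025 genes. A gene counted if any of its promoters held a match. The core of the interferon-stimulated response element, GAAA repeated after any 2 bases, was in 3 members (7.69%) and 3.46% of genes. TTCNNNGAA, the interferon-γ activation site, was in 1 member (2.56%) and 8.13% of genes, and CCAAT was in 14 (35.9%) and 37.5%. The first of these was in Psmb5, Psmb6, Psmc6, Psmd9 and Psmd12, while the third catalytic gene, Psmb7, had no promoter on hand. Those of 2 catalytic genes and of the lid gene Psmd12 are printed with the match in capitals and read along the strand of the gene. Psmb5 lies on the minus strand at chr14:54618024-54618052, Psmb6 on the plus strand at chr11:70525338-70525356 and Psmd12 on the plus strand at chr11:107479278-107479299.
Psmb5: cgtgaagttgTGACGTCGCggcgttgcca
Psmb6: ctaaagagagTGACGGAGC
Psmd12: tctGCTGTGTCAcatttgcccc
The interferon-γ activation site was that of Psmg1, on the minus strand at chr16:95991185-95991210.
Psmg1: actcatgTTCTCTGAAtccgcttgca
A match of letters is a description of the sequence, and whether a factor binds there was not measured.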

How the data were processed

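The deposited files hold UMI counts per gene row and cell barcode for 16 libraries, which the authors made with Cell Ranger (alignment and UMI counting; build GRCm38 per the processing notes). The labels and the single-cell methods name the 3′ kit, and a methods paragraph on receptor sequencing names the 5′ kit; the kit was not settled here. The 25127 rows were summed by the gene symbol that opens each name to 24469 symbols, and 27 vector rows (1 to 11 UMIs per library) were left out. Libraries were grouped by their labels into 4 conditions, 2 tissues and 2 sorts.

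Cells with under 200 genes or over 20% mitochondrial UMIs were removed (1 to 29 per library). Gates required at least 1 UMI each of the T cell and Cd8 genes with no Cd4, 2 UMIs of NK genes, 3 of B cell genes, and for macrophages and monocytes at least 5 UMIs and 10 (C1q) or 20 (Lyz2) UMIs per 10000, with other lineages' markers limited; groups under 20 cells were left out. Doublets were limited only by this mutual exclusion, with no doublet caller.

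UMIs were summed per library and gate. Genes with at least 10 UMIs in at least 4 libraries were tested with edgeR 4.0.16 (TMM, quasi-likelihood, condition as block, Benjamini-Hochberg adjustment, threshold 0.05) in R 4.3.3, with 8 sums and 3 residual degrees of freedom per test, or 16 sums and 6 for the differences between cell types. The code was tested on simulated data. Alternatives were DESeq2 1.42.0, total UMIs without TMM, no filter beyond 1 UMI, no condition block, stricter gates, cells thinned to 1500 UMIs, no cycling cells, no high-UMI cells (top 5%) and each condition left out. Condition contrasts used exact 95% intervals of counts (Python 3.11.15, numpy 2.4.6, scipy 1.17.1) among symbols with at least 50 UMIs over the pair, and counts past the fold were limited to 5 deep gates, a limit chosen after depth was seen. Figures were drawn with matplotlib 3.10.9.

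Genes named with values were Psmb5, Psmb6, Psmb7, Psme1, Psme2, Psme2b, Psme3, Psme4, Psmf1, Psmg1 to Psmg4, Psma8, Psmb11, Psmc3ip, and in each test the 5 members with the largest log2 fold change in size at an adjusted p under 0.05 in each direction; members past the fold between conditions, and single genes of the companion lists, were named after their values were seen. The members and lists were chosen with earlier results of these data known. Some genes of the companion lists are not reported here.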

Additional observations from a re-analysis of the deposited data

Results flagged for a closer look

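Each of the following was listed because the tissue effect, tumor over spleen, differed between 2 cell types by a test of the difference itself (edgeR quasi-likelihood test, Benjamini-Hochberg adjustment over all genes). Values are differences of log2 fold changes, NK cells or monocytes less CD8 T cells of the CD45+ sort, each with its standard error, adjusted p and the number of conditions that show its direction. In NK cells the difference was 0.51 ± 0.14 (SE, adjusted p = 0.014, 4 of 4 conditions) for Psma6, −0.37 ± 0.11 (SE, adjusted p = 0.023, 4 of 4 conditions) for Psmb3, 0.60 ± 0.18 (SE, adjusted p = 0.027, 4 of 4 conditions) for Psmc5 and 0.79 ± 0.10 (SE, adjusted p = 1.7e-05, 4 of 4 conditions) for Psme1. It was 0.62 ± 0.12 (SE, adjusted p = 0.00085, 4 of 4 conditions) for Psme2, 0.68 ± 0.16 (SE, adjusted p = 0.0046, 4 of 4 conditions) for Psme2b, 1.84 ± 0.42 (SE, adjusted p = 0.0038, 4 of 4 conditions) for Psmg1 and 1.23 ± 0.30 (SE, adjusted p = 0.0069, 4 of 4 conditions) for Psmg2. NK cells of the spleen rest on 48 to 84 cells per library, and Psmg1 and Psmg2 among them on few UMIs.

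In monocytes the difference was −0.43 ± 0.12 (SE, adjusted p = 0.012, 4 of 4 conditions) for Psmb3, −0.80 ± 0.16 (SE, adjusted p = 0.0019, 4 of 4 conditions) for Psmd13, 0.47 ± 0.16 (SE, adjusted p = 0.036, 4 of 4 conditions) for Psmd3 and 0.60 ± 0.16 (SE, adjusted p = 0.012, 4 of 4 conditions) for Psmd7. It was 0.98 ± 0.11 (SE, adjusted p = 1.3e-05, 4 of 4 conditions) for Psme1, 0.52 ± 0.13 (SE, adjusted p = 0.0085, 4 of 4 conditions) for Psme2 and 0.54 ± 0.15 (SE, adjusted p = 0.016, 4 of 4 conditions) for Psme2b. Psmb3 was the member with a smaller effect in both NK cells and monocytes, and Psme1, Psme2 and Psme2b had a larger effect in both. Scaled to total UMIs with no TMM, 2 members had a larger and 14 a smaller effect in NK cells, beside 503 and 2670 of all 9141 genes. In monocytes 1 had a larger and 19 a smaller effect, beside 716 and 3348 of all 10021 genes. Most of the calls of a larger effect were thus lost on that scale, those of Psme2 and Psme2b among them. On the TMM scale 7 of 45 members had a larger and 1 a smaller effect in NK cells, beside 10.3 and 11.1% of all genes, and 5 a larger and 2 a smaller one in monocytes, beside 11.8 and 15.6%. No cause of these differences was tested.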

How the results depend on the processing

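Pooled mice, 1 library per condition and 48 to 84 splenic NK cells per library limit what can be told. Thinning cells to 1500 UMIs left fewer members called in every tissue test. Of the values of named genes under an alternative, 1548 kept their call or stayed without one, 148 lost the call, 48 gained one and 3 changed sign with a call in the main or the alternative fit. The 1548 take in values without a call in either fit whose sign differs. The counts of members in CD8 T cells of the CD8+ sort stayed within 1.5 times under every alternative. The alternatives of the tests were DESeq2, total UMIs with no TMM, no filter beyond 1 UMI, no condition block, stricter gates, thinned cells, no cycling cells, no high-UMI cells and leave-one-out over the conditions. At a log2 ratio of 1 in place of 0.5, 0 members passed between conditions in the deep gates.

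The 3 changes of sign with a call were as follows. The tissue effect of Psmc3ip in CD8 T cells of the CD8+ sort went from 0.97 to −0.034 without cycling cells. With total UMIs and no TMM, Psmb5 went from 0.15 to −0.24 and Psme2b from 0.051 to −0.34 in the tissue effect in monocytes. Values that passed in neither fit also changed sign on that scale, among them Psmf1 in monocytes, from 0.17 to −0.21, and Psme2b in NK cells, from 0.089 to −0.25. Counts of members below are given where they moved by over 1.5 times, and the cause was not tested.

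Among CD8 T cells of the CD45+ sort, 5 members were higher in thinned cells, and 5 were lower without cycling cells and 5 without high-UMI cells. In NK cells, 15 were higher with DESeq2, 8 with total UMIs and 2 in thinned cells, and 0 were lower with DESeq2, with no filter beyond 1 UMI, in thinned cells and in every leave-one-out fit. In monocytes, 10 were higher and 8 lower with total UMIs and 8 higher and 0 lower in thinned cells, while 3 were lower with no condition block and 2 each without cycling cells and without high-UMI cells.

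For tumor macrophages against tumor CD8 T cells, 13 were higher and 8 lower with total UMIs, 10 of 44 higher in thinned cells, beside 1476 of 5874 genes, and 2 lower with no filter beyond 1 UMI, and leave-one-out gave 2 to 3 lower. For tumor NK cells against tumor CD8 T cells, 1 was higher and 0 lower with DESeq2 and in thinned cells, 3 were higher without cycling cells, 2 lower with total UMIs and 0 lower with stricter gates, and leave-one-out gave 1 to 7 higher and 0 to 1 lower. For splenic B cells against splenic CD8 T cells, 5 were higher and 4 lower with total UMIs, beside 3110 and 1573 of 9930 genes. DESeq2 gave 6 lower, beside 1600 of 9930 genes, and the thinned cells 5, beside 1002 of 8296. Leave-one-out gave 1 to 2 higher and 4 to 7 lower, beside 1321 to 1431 and 1473 to 1611 genes.

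The difference of the tissue effect between NK cells and CD8 T cells was larger for 2 members and smaller for 14 with total UMIs, larger for 2 in thinned cells and smaller for 2 without cycling cells, and leave-one-out gave 4 to 8 larger and 0 to 1 smaller. Between monocytes and CD8 T cells it was larger for 1 and smaller for 19 with total UMIs, larger for 8 and smaller for 1 with no filter beyond 1 UMI, smaller for 0 in thinned cells and smaller for 1 each without cycling cells and without high-UMI cells, and leave-one-out gave 3 to 5 larger and 1 to 3 smaller.

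The log2 ratio of the summed share between conditions, which has no test, moved past the counting interval of the main setting in these cases, and the cause was not tested. Changes within that interval, some of them changes of sign, are not listed. For the log2 ratio of the summed share, CD8 T cells, CD8+ sort, tumor, Aire-/- over Aire+/+ under anti-PD1, it went from 0.015 to −0.0032 in thinned cells and 0.030 without cycling cells. That of CD8 T cells, CD8+ sort, tumor, Aire-/- over Aire+/+ under isotype, was −0.0080, and −0.030 in thinned cells, −0.021 without high-UMI cells, −0.023 without Psme1 and Psme2 and −0.039 of non-ribosomal, non-mitochondrial UMIs. From −0.018, CD8 T cells, CD8+ sort, tumor, anti-PD1 over isotype in Aire+/+, moved to −0.031 without high-UMI cells, −0.035 without Psme1 and Psme2 and −0.066 of non-ribosomal, non-mitochondrial UMIs. The value 0.0050 of CD8 T cells, CD8+ sort, tumor, anti-PD1 over isotype in Aire-/-, became −0.010 of non-ribosomal, non-mitochondrial UMIs. Instead of 0.21, CD8 T cells, CD8+ sort, spleen, Aire-/- over Aire+/+ under anti-PD1, had 0.16 in thinned cells, 0.19 without cycling cells, 0.17 without high-UMI cells and 0.13 of non-ribosomal, non-mitochondrial UMIs. Also, CD8 T cells, CD8+ sort, spleen, Aire-/- over Aire+/+ under isotype, had −0.065 and −0.044 in thinned cells, −0.080 without cycling cells and −0.090 of non-ribosomal, non-mitochondrial UMIs. For CD8 T cells, CD8+ sort, spleen, anti-PD1 over isotype in Aire+/+, it went from −0.14 to −0.11 in thinned cells, −0.12 without high-UMI cells and −0.11 of non-ribosomal, non-mitochondrial UMIs. That of CD8 T cells, CD8+ sort, spleen, anti-PD1 over isotype in Aire-/-, was 0.13, and 0.10 in thinned cells, 0.10 without high-UMI cells and 0.11 of non-ribosomal, non-mitochondrial UMIs. From 0.016, CD8 T cells, CD45+ sort, tumor, Aire-/- over Aire+/+ under anti-PD1, moved to −0.014 without cycling cells and −0.016 of non-ribosomal, non-mitochondrial UMIs. The value 0.043 of the log2 ratio of the summed share, CD8 T cells, CD45+ sort, tumor, Aire-/- over Aire+/+ under isotype, became −0.019 without cycling cells, −0.0099 without high-UMI cells and −0.0070 of non-ribosomal, non-mitochondrial UMIs. Instead of −0.071, CD8 T cells, CD45+ sort, tumor, anti-PD1 over isotype in Aire-/-, had −0.039 in thinned cells and −0.10 without Psme1 and Psme2. For CD8 T cells, CD45+ sort, spleen, anti-PD1 over isotype in Aire+/+, it went from −0.043 to −0.11 in thinned cells. Instead of −0.057, NK cells, CD45+ sort, tumor, anti-PD1 over isotype in Aire+/+, had 0.018 in thinned cells and −0.10 without Psme1 and Psme2. Also, NK cells, CD45+ sort, tumor, anti-PD1 over isotype in Aire-/-, had 0.049 and 0.10 in thinned cells. From 0.016, NK cells, CD45+ sort, spleen, Aire-/- over Aire+/+ under anti-PD1, moved to 0.13 in thinned cells. The value 0.022 of NK cells, CD45+ sort, spleen, anti-PD1 over isotype in Aire-/-, became 0.15 in thinned cells. For macrophage cells, CD45+ sort, tumor, Aire-/- over Aire+/+ under anti-PD1, it went from 0.10 to 0.16 in thinned cells, 0.028 without Psme1 and Psme2 and 0.062 of non-ribosomal, non-mitochondrial UMIs. That of the log2 ratio of the summed share, macrophage cells, CD45+ sort, tumor, Aire-/- over Aire+/+ under isotype, was 0.042, and 0.058 with stricter gates, −0.013 without Psme1 and Psme2 and −0.0075 of non-ribosomal, non-mitochondrial UMIs. From −0.085, macrophage cells, CD45+ sort, tumor, anti-PD1 over isotype in Aire+/+, moved to −0.10 with stricter gates, −0.11 in thinned cells, −0.11 without cycling cells, −0.10 without high-UMI cells and −0.10 without Psme1 and Psme2. The value −0.024 of the log2 ratio of the summed share, macrophage cells, CD45+ sort, tumor, anti-PD1 over isotype in Aire-/-, became 0.0045 in thinned cells, −0.051 without high-UMI cells and −0.058 without Psme1 and Psme2. Instead of 0.0055, monocyte cells, CD45+ sort, tumor, Aire-/- over Aire+/+ under anti-PD1, had 0.053 with stricter gates, 0.037 in thinned cells and −0.023 without Psme1 and Psme2. Also, monocyte cells, CD45+ sort, tumor, Aire-/- over Aire+/+ under isotype, had −0.027 and −0.089 in thinned cells and −0.055 without Psme1 and Psme2. For monocyte cells, CD45+ sort, tumor, anti-PD1 over isotype in Aire+/+, it went from −0.094 to −0.12 with stricter gates and −0.11 in thinned cells. That of monocyte cells, CD45+ sort, tumor, anti-PD1 over isotype in Aire-/-, was −0.061, and −0.034 with stricter gates and 0.012 in thinned cells. From −0.018, monocyte cells, CD45+ sort, spleen, Aire-/- over Aire+/+ under anti-PD1, moved to 0.080 with stricter gates. The value −0.076 of monocyte cells, CD45+ sort, spleen, anti-PD1 over isotype in Aire+/+, became −0.14 with stricter gates. For B cells, CD45+ sort, spleen, Aire-/- over Aire+/+ under anti-PD1, it went from 0.079 to 0.040 of non-ribosomal, non-mitochondrial UMIs. That of B cells, CD45+ sort, spleen, Aire-/- over Aire+/+ under isotype, was 0.0016, and 0.042 in thinned cells, 0.032 without cycling cells and 0.050 without high-UMI cells. From −0.039, the log2 ratio of the summed share, B cells, CD45+ sort, spleen, anti-PD1 over isotype in Aire+/+, moved to 0.014 in thinned cells, −0.016 without cycling cells and −0.00050 without high-UMI cells. The value 0.038 of B cells, CD45+ sort, spleen, anti-PD1 over isotype in Aire-/-, became 0.010 of non-ribosomal, non-mitochondrial UMIs.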
